A study of Mus musculus with 309 samples.

Results

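Trametinib inhibits the kinase MEK, and its effect on the RNA of C3-TAG mammary tumours was examined in 6 of the 309 mouse tumours of the series: all 3 C3-TAG tumours labelled as given trametinib (library names CP-4934, CP-4935 and CP-4968) and the untreated C3-TAG tumours CP-4695, CP-4738 and CP-4739. The labels place these 3 untreated tumours in the set for trametinib, while the remaining untreated C3-TAG tumour, CP-2387, is labelled as outside it and was left out of the main comparison. The labels give the model, the tissue (mammary tumour) and the treatment for each tumour, and name no strain, age, dose, length of treatment or time of collection. They do not say whether a tumour arose in the transgenic animal or was transplanted, nor whether tumours of a group came from separate mice, so p-values measure the spread between these tumours. Other C3-TAG tumours are used for reference: 3 given erlotinib, which blocks the kinase of the receptor EGFR (CP-4936, CP-4966, CP-4967), 3 given carboplatin plus paclitaxel (CP-5050, CP-5147, CP-5149) and 3 given antibodies to PD1 and CTLA4 (CP-4714, CP-4715, CP-4740), which makes 16 in all.

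C3-TAG mice carry the SV40 T antigen genes under a promoter of the rat C3(1) gene, which is active in mammary epithelium, so both arms share this transgene. T antigen binds and disables the tumour suppressors p53 and Rb. Ras proteins relay signals from receptors through the Raf kinases to MEK and then to ERK. Active ERK switches on genes that include its own brakes (the Dusp phosphatases, Sprouty and Spred proteins) and transcription factors of the Pea3 ETS, Egr and AP-1 families, and these genes serve as readouts of MEK inhibition. Median survival given in the labels was 28 days for the untreated C3-TAG group, 56 days with trametinib, 38.5 days with erlotinib, 44 days with carboplatin plus paclitaxel and 41.5 days with the antibodies. With 1 value per group and no spread, these could not be tested.

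The 6 libraries held between 84.0 M and 128 M estimated counts, so counting error was small beside the spread between tumours. Levels are in CPM, the count divided by a library size that was adjusted by trimmed means (TMM) over the 16 C3-TAG tumours, and list values as differences in log2 CPM. Epithelial markers matched the label in every one of the 6: Epcam, an epithelial adhesion protein, lay between 273 and 1910 CPM and the keratin Krt8 between 341 and 546 CPM. The basal keratin Krt14 lay between 365 and 936 CPM, and the milk gene Wap at 0.465 CPM or less. Other cells were present to different extents, and fewer cells of a type cannot be told apart from less RNA per cell. The library numbers of the untreated tumours are all lower than those of the trametinib tumours, and any difference tied to that order cannot be told apart from treatment.

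The first question was whether any gene differed between the 3 trametinib and the 3 untreated tumours. By edgeR's quasi-likelihood test with Benjamini-Hochberg adjustment, 0 of 19077 genes (0.0%) were called at an adjusted p under 0.05, and 443 genes (2.32%) had an unadjusted p under 0.05. The smallest adjusted p was 1. DESeq2 on the same tumours called 19 genes (14 higher, 5 lower, 0.0996%), and limma on the authors' normalized table called 0. All 3 trametinib tumours lay below all 3 untreated tumours for 649 genes (3.4%) and above them for 427 genes (2.24%). With no effect, about 5% of genes would have an unadjusted p under 0.05, and 5% would separate each way. The 2.32%, 3.4% and 2.24% here are all below this. Over all genes, those low or high in all 3 trametinib tumours were thus no more frequent than without an effect. An exact permutation test of 3 against 3 tumours cannot give a p below 0.1. The trametinib tumours differed widely from each other, and their ERK output genes show this first.

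The ERK output list held 24 genes, all of them tested, and 0 were called. Its median log2 fold change was -0.05, against 0.04 for all tested genes. That median hides 3 different tumours: the median difference of the list from the untreated mean was -0.94 in tumour CP-4934, -0.46 in tumour CP-4968 and 0.41 in tumour CP-4935. In tumour CP-4934, 15 of the 24 genes lay below the lowest untreated tumour, against 25.9% of all tested genes, and 0 lay above the highest. In tumour CP-4968, 12 lay below (35.3% of all genes) and 4 above, and in tumour CP-4935 3 lay below (25.2%) and 12 above (28.2%). No member of the list lay below all untreated tumours in all 3 trametinib tumours.

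Dusp6, the phosphatase that acts on ERK itself, had 155, 112 and 153 CPM in the untreated tumours CP-4695, CP-4738 and CP-4739. It had 66.3 CPM in tumour CP-4934, 45.6 CPM in tumour CP-4968 and 210 CPM in tumour CP-4935. Tumours CP-4934 and CP-4968 were thus below every untreated tumour and tumour CP-4935 above every one, and the fold change over all 3 was -0.40 ± 0.536 on the log2 scale (SE, n = 3 and 3; unadjusted p = 0.481 by edgeR's quasi-likelihood test). Without tumour CP-4935 it was -1.32, and 0 genes were called in that fit. Tumour CP-4935 is singled out by its Dusp6 value itself, so that fit is no test of a fall. The windows around the transcription starts of Dusp6 and Etv5 are shown from RefSeq (build GRCm38.p6). Both genes were low in tumours CP-4934 and CP-4968 and high in tumour CP-4935. Each window runs from 250 bases before to 50 after the start, on the gene's strand. Capitals mark GGAA, the core letters bound by ETS factors, on either strand.
Dusp6: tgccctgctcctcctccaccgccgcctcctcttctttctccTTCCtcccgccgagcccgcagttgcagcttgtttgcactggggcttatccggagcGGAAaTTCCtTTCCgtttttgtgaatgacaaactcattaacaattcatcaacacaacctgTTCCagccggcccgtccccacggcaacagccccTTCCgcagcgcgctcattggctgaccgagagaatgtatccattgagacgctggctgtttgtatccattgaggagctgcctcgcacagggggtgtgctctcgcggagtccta
Etv5: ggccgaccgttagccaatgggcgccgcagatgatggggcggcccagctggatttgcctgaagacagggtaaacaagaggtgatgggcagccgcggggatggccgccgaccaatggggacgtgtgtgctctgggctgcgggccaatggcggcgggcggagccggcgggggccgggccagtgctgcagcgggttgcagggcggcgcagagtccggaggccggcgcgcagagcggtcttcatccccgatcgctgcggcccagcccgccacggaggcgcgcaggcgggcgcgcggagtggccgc
The Dusp6 window lies at chr10:99262981-99263280 on the plus strand and holds 6 matches, and the Etv5 window at chr16:22439521-22439820 on the minus strand holds 0. Of 32851 such windows in the RefSeq table, 96.0% hold GGAA, as do 14 of the 15 windows found for the 24 list members, so the match sets no gene apart and its absence says only that these letters are not in the window. The AP-1 site TGANTCA was in 7.81% of all windows and 0 of the 15.

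Among the Pea3 factors, Etv4 and Etv5 repeated this split and Etv1 did not. Etv4 had 35.5, 22.4 and 31.8 CPM untreated, 10.9 in tumour CP-4934, 8.01 in tumour CP-4968 and 44.1 in tumour CP-4935. Etv5 had 37.8, 31.6 and 33.3 CPM untreated, 13.7 in tumour CP-4934, 24.6 in tumour CP-4968 and 132 in tumour CP-4935. For both genes the trametinib tumours lay on either side of the untreated ones, with tumour CP-4935 the highest of the 6. Etv1, the least abundant of the 3, had 1.39 to 4.82 CPM untreated and 2.92, 5.41 and 5.09 CPM in tumours CP-4934, CP-4968 and CP-4935.

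Dusp4, a phosphatase of the nucleus, had 45.0, 25.7 and 33.1 CPM untreated, 8.99 in tumour CP-4934, 8.59 in tumour CP-4968 and 37.2 in tumour CP-4935. Dusp5, another nuclear phosphatase, had 27.8, 22.8 and 15.6 CPM untreated, 9.78 and 6.92 in tumours CP-4934 and CP-4968, and 54.3 in tumour CP-4935. Spry4, a Sprouty inhibitor of receptor signalling, had 11.1, 7.25 and 6.47 CPM untreated, 3.75 and 4.08 in tumours CP-4934 and CP-4968 and 9.31 in tumour CP-4935. These 3 brakes were again below every untreated tumour in CP-4934 and CP-4968, and within or above the untreated range in CP-4935. Spry1 and Spry2 did not follow them: Spry1 had 24.2 to 41.9 CPM untreated and 61.6 CPM in tumour CP-4968, and Spry2 had 29.4 to 58.8 CPM untreated and 30 to 59.1 CPM with trametinib.

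Of the early response factors, Egr1 had 368, 251 and 303 CPM untreated, 150 in tumour CP-4934, 67.5 in tumour CP-4968 and 425 in tumour CP-4935. Egr2 had 25.9, 27.3 and 23.7 CPM untreated, 10.6 and 8.65 in tumours CP-4934 and CP-4968, and 135 in tumour CP-4935. Both therefore repeated the split seen for Dusp6. Fosl1, an AP-1 subunit, had 11.6, 9.72 and 5.21 CPM untreated and 3.13, 9.16 and 16.0 CPM in tumours CP-4934, CP-4968 and CP-4935, and Phlda1 had 56.8 to 81.4 CPM untreated and 49.4 to 84.2 CPM with trametinib. Ccnd1, the cyclin that carries growth signals into the cell cycle, was highest in tumour CP-4968 (118 CPM), with 36.1 to 75 CPM untreated. Epha2, an ephrin receptor and the list member with the smallest p, had 156, 91.9 and 111 CPM untreated and 51.0, 56.1 and 101 CPM in tumours CP-4934, CP-4968 and CP-4935 (log2 fold change -0.79 ± 0.340 SE, n = 3 and 3; unadjusted p = 0.0503 by edgeR). For Dusp4 the log2 fold change was -0.94 ± 0.592 (SE, unadjusted p = 0.154 by edgeR).

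**Figure D1:**
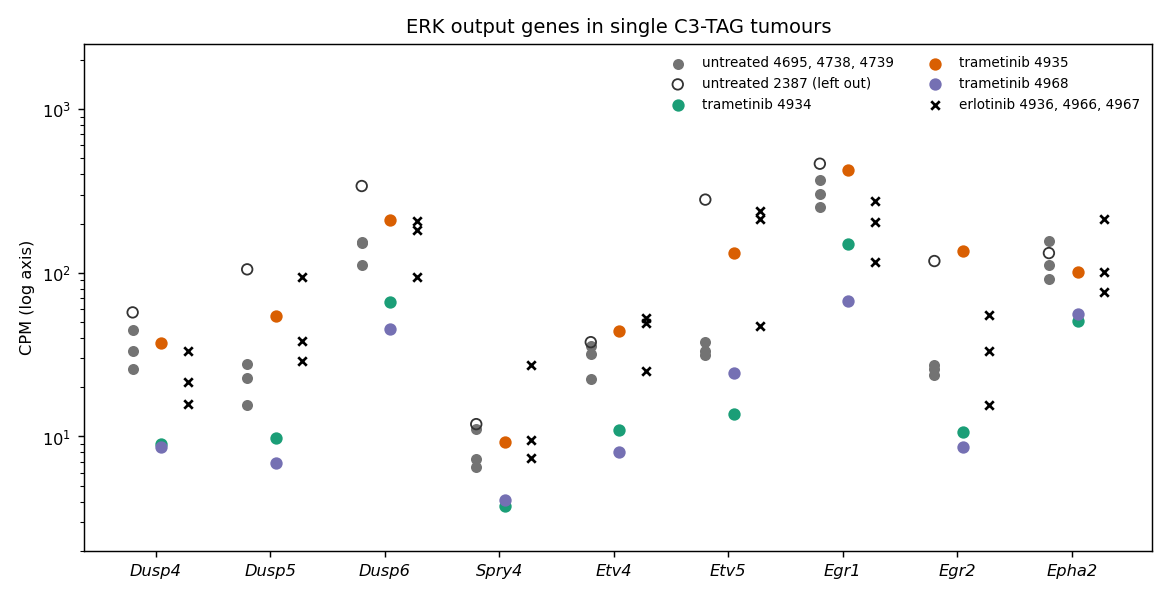
CPM (log axis) of 9 ERK output genes, 1 point per tumour, for untreated, trametinib and erlotinib C3-TAG tumours, with untreated tumour CP-2387 as an open circle. Tumours CP-4934 and CP-4968 sit below the 3 grey untreated points for each of the 9 genes (Dusp6 66.3 and 45.6 against 112 to 155 CPM), while tumour CP-4935 sits within or above them (210 CPM).

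Leaving out tumour CP-4935 brought the list's median to -0.59, and leaving out CP-4934 or CP-4968 brought it to 0.02 or -0.10. Some members did not follow Dusp6 in tumours CP-4934 and CP-4968. Spred1 had 77.3 and 42.3 CPM there against 66.3 to 83.7 CPM untreated, and Spred3 had 4.22 and 16.9 CPM against 3.87 to 7.14 CPM. Myc, a growth-promoting transcription factor, had 39.6 and 44.5 CPM against 33.9 to 85.4 CPM, and the AP-1 subunit gene Fos 37.8 and 38.5 CPM against 26.5 to 52.2 CPM.

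The cascade upstream of these genes was considered next. Of the 24 genes of the Ras, Raf, MEK and ERK cascade 0 were called. In tumour CP-4935, the Ras gene Hras (53 CPM) was below the untreated range of 69.5 to 77.9 CPM and its relative Nras (186 CPM) within that of 113 to 242 CPM. Map2k1 and Map2k2, which encode the 2 MEK kinases that trametinib binds, had 81.5 to 85.5 and 117 to 150 CPM untreated. With trametinib Map2k1 had 99.8, 120 and 78.8 CPM and Map2k2 100, 138 and 174 CPM in tumours CP-4934, CP-4935 and CP-4968. Mapk3, which encodes ERK1, was below all untreated tumours in all 3 (185, 174 and 178 CPM against 216 to 231 CPM; log2 fold change -0.32 ± 0.211 SE, unadjusted p = 0.173 by edgeR), as was the adaptor Grb2 (109 to 117 against 120 to 129 CPM). Ksr1, a scaffold of the cascade, had 34.4, 27.8 and 45.2 CPM in the 3 against 16.1 to 29.1 CPM untreated.

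Dusp6 in tumours CP-4968 and CP-4934 was the lowest of all 16 C3-TAG tumours, and the next was 94.2 CPM in erlotinib tumour CP-4966. With erlotinib Dusp6 had 182, 94.2 and 207 CPM, with carboplatin plus paclitaxel 421, 274 and 169 CPM, and with the antibodies 256, 140 and 442 CPM. Tumour CP-4935, at 210 CPM, lay within the ranges of both latter groups, above the 3 erlotinib tumours and below the untreated tumour CP-2387 (339 CPM), which was left out of the comparison. Etv5 was 132 CPM in tumour CP-4935 and 280 CPM in tumour CP-2387, Egr2 135 and 118 CPM, Dusp5 54.3 and 105 CPM and Etv4 44.1 and 37.7 CPM. With 1 tumour each, these differences have no replicate check. Trf, which encodes the iron carrier transferrin, had 58.4 to 194 CPM in the 3 untreated tumours, 200 and 156 CPM in tumours CP-4934 and CP-4968, 1260 CPM in tumour CP-4935 and 1450 CPM in tumour CP-2387.

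**Figure D2:**
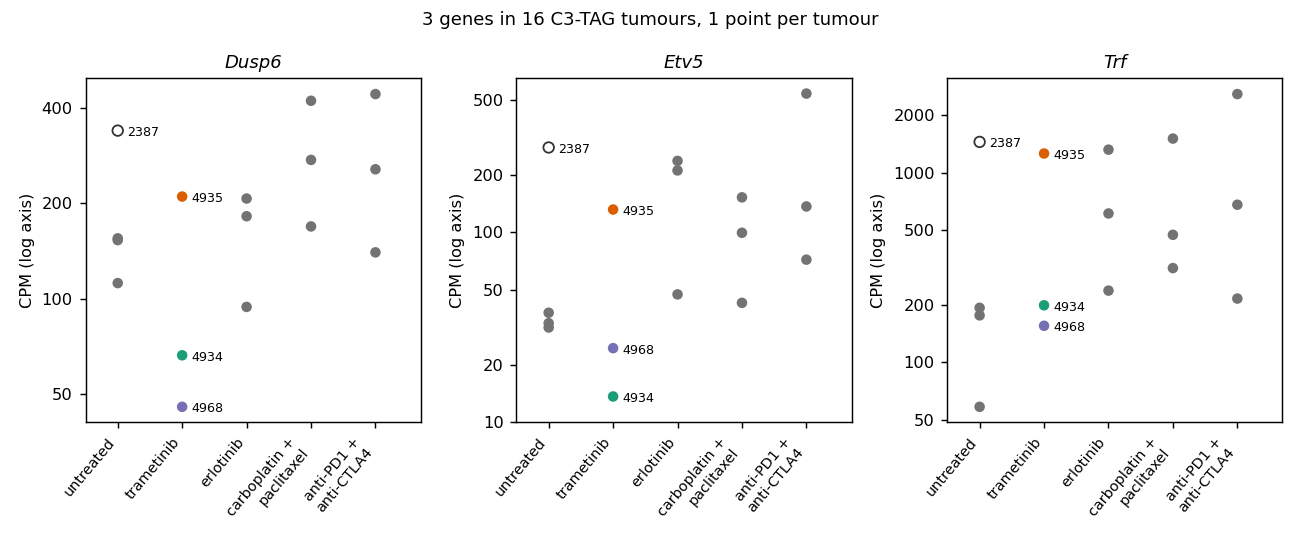
CPM (log axes) of Dusp6, Etv5 and Trf in the 16 C3-TAG tumours by treatment, 1 point per tumour, with the trametinib tumours coloured and numbered and untreated tumour CP-2387 as an open circle. Tumours CP-4934 and CP-4968 hold the lowest Dusp6 of the 16 (66.3 and 45.6 CPM), and tumour CP-4935 lies among the other treated tumours (210 CPM).

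Cell division genes split in the same way as the ERK output genes. Of 28 mitosis genes 0 were called, and the median log2 fold change was -0.09. Yet 21 of the 28 lay below every untreated tumour in CP-4934 (25.9% of all genes) and 28 of 28 in CP-4968 (35.3%), while 24 lay above every untreated tumour in CP-4935 (28.2%). The median difference was -0.49, -1.21 and 0.83 in these tumours. It was 0.33, -0.93 and -0.4 in the erlotinib tumours CP-4936, CP-4966 and CP-4967, so low values were not particular to trametinib. Mki67, the proliferation marker Ki-67, had 777, 496 and 582 CPM untreated, and 357, 231 and 656 CPM in tumours CP-4934, CP-4968 and CP-4935. Nusap1, a spindle protein, had 72.8 to 79.8 CPM untreated, 65.3 and 31.5 CPM in tumours CP-4934 and CP-4968 and 235 CPM in tumour CP-4935. Plk1, a mitotic kinase, was the 1 member of 28 below all untreated tumours in all 3, a share close to the 3.4% of all genes (43.4, 74.5 and 44.5 against 74.7 to 88.2 CPM; log2 fold change -0.57 ± 0.274 SE, unadjusted p = 0.0721 by edgeR).

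Of 29 replication genes 0 were called; 27 lay below every untreated tumour in CP-4968 (35.3% of all genes), 14 in CP-4934 (25.9%) and 2 in CP-4935 (25.2%), where 19 lay above (28.2%). Ccne1, the cyclin that starts S phase, was low in all 3 trametinib tumours, at 22.2, 11.8 and 17.0 CPM in CP-4934, CP-4935 and CP-4968 against 38.3, 22.6 and 35.6 CPM untreated (log2 fold change -0.91 ± 0.356 SE, unadjusted p = 0.0347 by edgeR). Mcm2, a part of the replicative helicase, had 257, 323 and 235 CPM against 294 to 463 CPM untreated. Among 16 G1 cyclins, kinases and their inhibitors, Cdkn1c, an inhibitor of cyclin-dependent kinases, had 6.66 to 10.5 CPM untreated and 85.1 CPM in tumour CP-4968, with 9.86 and 3.04 CPM in CP-4934 and CP-4935. Cdkn1a, which encodes p21, had 136 to 160 CPM untreated and 249, 125 and 105 CPM in CP-4934, CP-4935 and CP-4968. Of 20 p53 targets, Trp53inp1 (82.2, 44.4 and 35.0 against 19.3 to 31.9 CPM) and the death receptor Fas (9.41, 11.3 and 12.5 against 4.34 to 8.91 CPM) were above all untreated tumours in all 3, which compares with 2.24% of all genes. In the Bcl2 family list of 16 genes, Bmf, a sensor of cell stress, had 36.3 to 53.6 CPM with trametinib and 20.3 to 45.6 CPM untreated, and 0 members were separated.

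**Figure D3:**
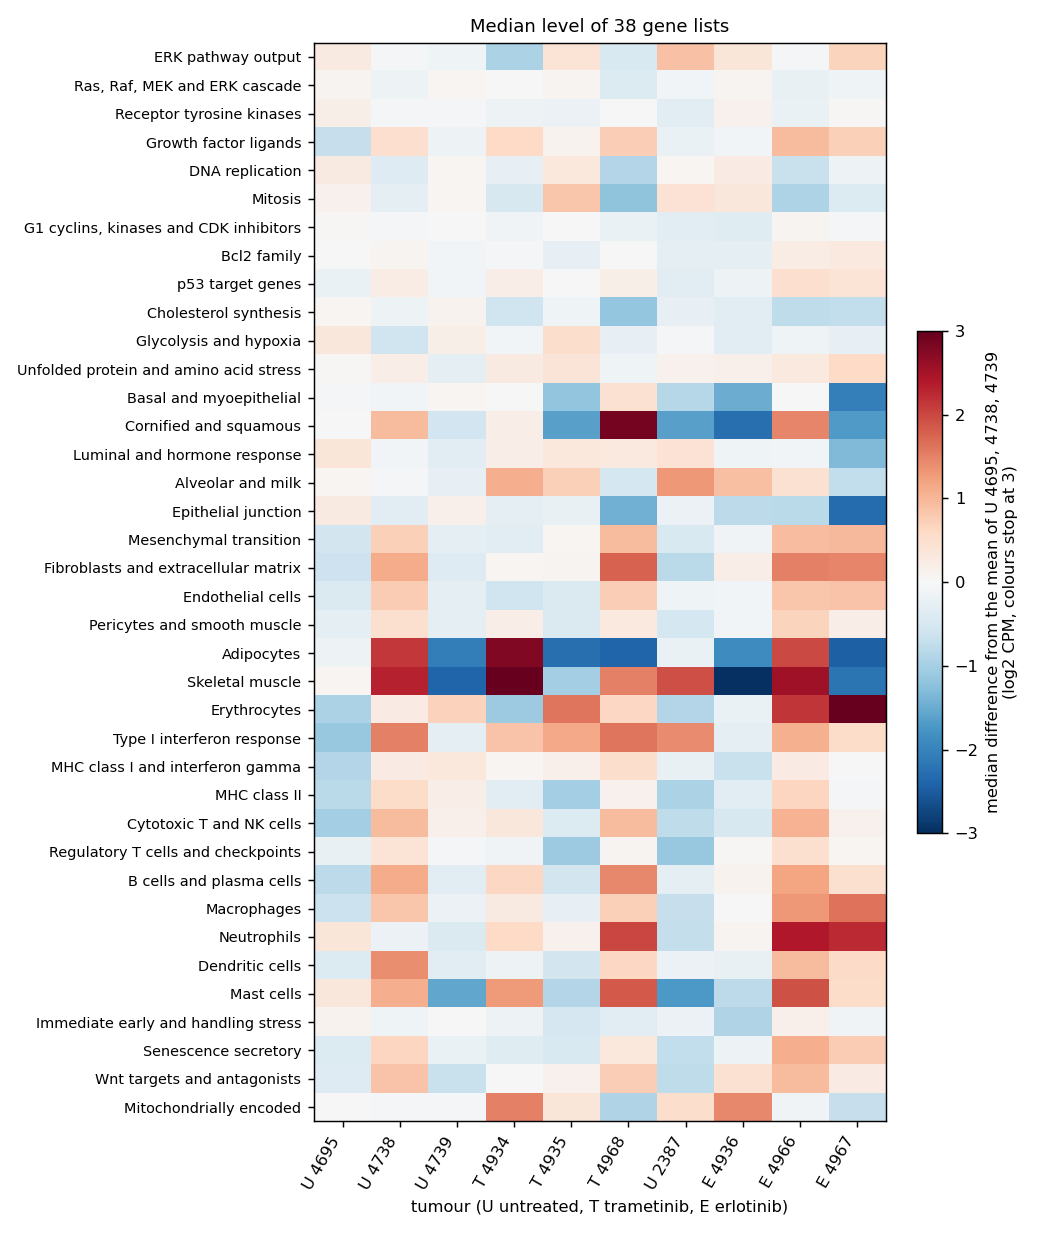
Median difference in log2 CPM of each of 38 gene lists from the mean of the 3 untreated tumours compared, for those tumours (U), the trametinib tumours (T), untreated tumour CP-2387 and the erlotinib tumours (E); red is higher, blue lower, and colours stop at 3. Tumours CP-4934, CP-4935 and CP-4968 differ from each other in ERK output (-0.94, 0.41 and -0.46), mitosis (-0.49, 0.83 and -1.21) and skeletal muscle (4.71, -1.03 and 1.51).

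Among the 3 trametinib tumours, epithelial genes were lowest in tumour CP-4968. All 25 epithelial junction genes lay below every untreated tumour there, against 35.3% of all genes, with a median difference of -1.44, and 8 and 10 did so in CP-4934 (25.9%) and CP-4935 (25.2%). In all 3 tumours 5 of the 25 members were below (Tjp1, Dsp, Pkp1, Jup and Esrp2), against 3.4% of all genes, and 0 were called. Jup, the plakoglobin of desmosomes and adherens junctions, had 776, 601 and 661 CPM untreated, and 399, 416 and 333 CPM in tumours CP-4934, CP-4935 and CP-4968 (log2 fold change -0.83 ± 0.252 SE, n = 3 and 3; unadjusted p = 0.0118, adjusted p = 1 by edgeR). Esrp2, a splicing regulator of epithelial cells, had 75.6 to 90.3 CPM untreated and 57.1, 40.2 and 38.5 CPM. Epcam itself was low in tumour CP-4968 alone, at 273 CPM against 928 to 1910 CPM untreated and 1090 and 1610 CPM in CP-4934 and CP-4935. Low junction values were not particular to trametinib. The list's median difference was -0.78, -0.81 and -2.32 with erlotinib and -1.2, -6.47 and -1.17 with carboplatin plus paclitaxel. With the antibodies it was 0.37, 0.29 and -0.06. Against erlotinib the list's median log2 difference was 0.57.

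Fibroblast and matrix genes were highest in tumour CP-4968 among the 3 trametinib tumours. There 24 of 27 lay above every untreated tumour (30.4% of all genes). The median difference was 1.78, against 0.07 and 0.08 in CP-4934 and CP-4935. Erlotinib tumours CP-4936, CP-4966 and CP-4967 had 0.21, 1.51 and 1.46, so high values were not particular to trametinib. Col1a1, a chain of collagen I, had 1630, 4100 and 1740 CPM untreated, and 1860, 1680 and 7770 CPM in CP-4934, CP-4935 and CP-4968. Dcn, the proteoglycan decorin, had 58.9, 297 and 85.0 CPM untreated and 395, 188 and 1380 CPM. The summed level of the list was 6910 to 18900 CPM untreated, and 10300, 8930 and 35900 CPM in the 3 trametinib tumours, and the part of stromal RNA in the low epithelial and mitosis values was not tested. Ogn and Omd, small matrix proteoglycans, were above all untreated tumours in all 3: Ogn had 46.0, 42.7 and 115 CPM against 4.78, 34.1 and 3.38 CPM. Vim, an intermediate filament of mesenchymal cells, had 299, 480 and 1150 CPM against 212, 940 and 271 CPM. Cdh2, the neural cadherin, went the other way, at 32.4, 17.4 and 30.2 CPM against 61.0, 41.7 and 79.8 CPM (log2 fold change -1.19 ± 0.362 SE, unadjusted p = 0.012 by edgeR), as did the matrix protein gene Tnc (399, 319 and 325 against 407 to 969 CPM).

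Among the 3 trametinib tumours, basal genes were lowest in tumour CP-4935. There 16 of 21 lay below every untreated tumour (25.2% of all genes; median difference -1.19), against 4 in CP-4934 (25.9%) and 5 in CP-4968 (35.3%). In CP-4968, 11 of the 21 lay above every untreated tumour (30.4% of all genes). Krt5 had 57.6, 68.2 and 129 CPM untreated, 62.1 and 326 CPM in CP-4934 and CP-4968 and 4.62 CPM in CP-4935. Trp63, the master factor of basal cells, had 86.5, 32.8 and 108 CPM untreated, 80.7 and 69.1 CPM, and 6.81 CPM in CP-4935. Tumour CP-2387 had similarly little of both, 2.16 CPM of Krt5 and 2.74 CPM of Trp63. The list's median difference was -0.86 in CP-2387, and -1.49, -0.02 and -2.05 with erlotinib. It was -1.55, -3.81 and 0.51 with carboplatin plus paclitaxel and -1.12, -0.55 and -1.39 with the antibodies. Low basal genes were thus not particular to tumour CP-4935. Lamb3, a laminin chain of hemidesmosomes, was low in all 3 trametinib tumours (294, 243 and 160 against 511, 311 and 495 CPM; log2 fold change -0.92 ± 0.337 SE, unadjusted p = 0.0275 by edgeR). Foxa1, a pioneer factor of luminal cells, was high in all 3, at 9.95, 7.99 and 8.42 CPM against 3.37, 2.92 and 1.36 CPM (log2 fold change 1.79 ± 0.467 SE, unadjusted p = 0.00542 by edgeR; DESeq2 adjusted p = 0.0378). The luminal gene Aldh1a3 was low in all 3 (78.6, 45.9 and 59.2 against 96.1 to 201 CPM), and Lcn2, the secreted protein lipocalin, had 529, 985 and 265 CPM against 262 to 331 CPM.

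Genes of cornified skin were highest in tumour CP-4968 among the 6 tumours. Krt1 and Krt10, the keratins of upper epidermis, had 461 and 564 CPM there, and at most 0.969 and 5.31 CPM in the other 5 tumours. Lor, which encodes loricrin of the cornified envelope, had 123 CPM against at most 2.40 CPM, and 11 of 15 tested members lay above every untreated tumour, against 30.4% of all genes. The list's median log2 fold change of 1.28 rests on that tumour: without it the median was -0.64. Its summed level was 1700 CPM in CP-4968, 747 and 264 CPM in CP-4934 and CP-4935, and 273 to 610 CPM untreated. With erlotinib the summed level was 227, 789 and 105 CPM in CP-4936, CP-4966 and CP-4967.

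Tumour CP-4934 stood out for other tissue. All 15 skeletal muscle genes lay above every untreated tumour (23.0% of all genes), with a median difference of 4.71, and the summed level was 7010 CPM against 74.6 to 1470 CPM untreated and 136 and 918 CPM in CP-4935 and CP-4968. Acta1, the actin of skeletal muscle, had 1520 CPM there against 11.5 to 387 CPM. Of 15 adipocyte genes 11 lay above as well, with a summed level of 3270 CPM against 144 to 2260 CPM, and Adipoq, the hormone adiponectin, at 109 CPM against 3.67 to 68.0 CPM. No tested member of either list was at 0 in any of the 6 tumours. All 13 mitochondrially encoded genes were above every untreated tumour in CP-4934 (23.0% of all genes), 10 in CP-4935 (28.2%), and 1 in CP-4968 (30.4%), where 10 lay below (35.3%). The part of muscle and fat RNA in the other values of tumour CP-4934 was not tested; Epcam in that tumour was 1090 CPM, within the untreated range.

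Vessel genes were split too. Of 24 endothelial genes, 13 lay below every untreated tumour in CP-4934 (25.9% of all genes) and 10 in CP-4935 (25.2%), and 12 lay above in CP-4968 (30.4%). The median differences were -0.59, -0.43 and 0.73. In the erlotinib tumours CP-4936, CP-4966 and CP-4967 they were -0.08, 0.83 and 0.86. Pecam1, the adhesion protein CD31, had 35.6, 87.0 and 37.1 CPM untreated and 36.5, 39.1 and 75.7 CPM with trametinib. Dll4, the Notch ligand of tip cells, was the 1 member of 24 below all untreated tumours in all 3 (4.6, 7.90 and 6.86 against 8.05 to 9.82 CPM), a share close to the 3.4% of all genes.

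Type I interferon genes stood above the untreated mean in all 3 trametinib tumours. The median differences from the untreated mean were 0.85, 1.13 and 1.61 in CP-4934, CP-4935 and CP-4968, and of 30 members none lay below the lowest untreated tumour in any of the 3, where 25.2% to 35.3% of all genes did. The untreated tumours were themselves spread, with median differences from -1.14 to 1.5, the highest in CP-4738, so 1, 7 and 16 members lay above the highest untreated tumour, against 23.0%, 28.2% and 30.4% of all genes. Untreated tumour CP-2387, left out of the comparison, had a median difference of 1.42, above CP-4934 and CP-4935. The other treated C3-TAG tumours were at -0.29, 1.06 and 0.56 with erlotinib, 2.37, 0.97 and 2.4 with carboplatin plus paclitaxel and 0.77, 0.67 and 1.0 with the antibodies, above the mean of the 3 untreated tumours in all but erlotinib tumour CP-4936. The list's median log2 fold change was 0.78, and 0 were called. Rsad2, the antiviral enzyme viperin, was the 1 member above all untreated tumours in all 3, at 28.0, 39.2 and 36.6 CPM against 3.38, 21.9 and 4.97 CPM (log2 fold change 1.79 ± 0.673 SE, unadjusted p = 0.0301 by edgeR). Ifit2, another antiviral gene, had 47.7, 48.3 and 76.9 CPM against 27.3, 48.1 and 25.9 CPM. Without untreated tumour CP-4738 the list's median was 1.86, and without CP-4695 it was 0.35.

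Among genes of antigen presentation and immune cells, Cd274, which encodes the checkpoint ligand PD-L1, was high in all 3 trametinib tumours, at 11.4, 12.8 and 13.9 CPM against 4.82, 8.08 and 5.40 CPM (log2 fold change 1.06 ± 0.354 SE, unadjusted p = 0.0179 by edgeR). The guanylate-binding protein gene Gbp7 was too (52.0, 85.5 and 58.7 against 13.4, 44.9 and 34 CPM). MHC class II genes were lowest in CP-4935, where 8 of 10 lay below every untreated tumour (25.2% of all genes); H2-Aa had 118, 134 and 214 CPM in the 3 against 144, 366 and 269 CPM. Lck, a kinase of the T cell receptor, was low in all 3 (13.6, 11.2 and 9.87 against 22.1, 19.7 and 28.2 CPM; log2 fold change -1.01 ± 0.306 SE, unadjusted p = 0.0115 by edgeR). It was 1 of 2 members below in all 3 among 22 cytotoxic T and NK genes, against 3.4% of all genes, and 0 were called. The list as a whole was not low, with a median log2 fold change of 0.13. Its median differences were 0.33, -0.42 and 0.95, and 10 members lay above every untreated tumour in CP-4968 (30.4% of all genes). Cd8a, at 1.49, 1.52 and 3.06 CPM against 0.360, 2.60 and 2.58 CPM, overlapped between the groups, as did the macrophage gene Cd68 (91.0, 54.7 and 127 against 39.2 to 90.6 CPM). Cxcl5, a chemokine for neutrophils, was high in all 3, at 15.5, 19.6 and 14.9 CPM against 8.20, 2.58 and 2.24 CPM (log2 fold change 1.94 ± 0.560 SE, unadjusted p = 0.00916 by edgeR). The neutrophil gene S100a8 had 4.56, 2.13 and 22.5 CPM against 1.35 to 2.34 CPM. In CP-4968, 11 of 15 neutrophil genes were above every untreated tumour (30.4% of all genes). The neutrophil list's median difference was 2.01 in CP-4968, and 0.08, 2.41 and 2.24 in the erlotinib tumours CP-4936, CP-4966 and CP-4967.

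Among metabolic genes, Dhcr7, the last enzyme of cholesterol synthesis, was low in all 3 trametinib tumours, at 31.8, 28.7 and 29.9 CPM against 59.0, 41.6 and 50.5 CPM (log2 fold change -0.74 ± 0.241 SE, unadjusted p = 0.0162 by edgeR). Of 21 cholesterol genes 12 lay below every untreated tumour in CP-4934 (25.9% of all genes), 7 in CP-4935 (25.2%) and 17 in CP-4968 (35.3%). In all 3 tumours 3 members were below (3.4%), and 0 were called. Hmgcs1, near the start of the pathway, had 73.1, 113 and 30.6 CPM against 60.9 to 89.5 CPM. Phgdh, which begins serine synthesis, was high in all 3 (60.1, 66.6 and 151 against 25.2 to 49.7 CPM; log2 fold change 1.26 ± 0.426 SE, unadjusted p = 0.019 by edgeR), as was Bnip3, a nuclear gene for a mitochondrial protein, induced by low oxygen (76.5, 62.0 and 57.0 against 29.7 to 51.8 CPM). Growth factor ligands had a median log2 fold change of 0.65 with 0 called, led by Igf1 (54.0, 40.3 and 217 against 11.3, 75.9 and 18.4 CPM). That median was 0.07 without CP-4968, 0.33 without CP-4934 and 0.32 without untreated tumour CP-4695.

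Some genes outside the lists also separated the groups, and were chosen after their values were seen. Alox15, a lipoxygenase, had 38.4, 27.2 and 35.8 CPM untreated and 10.2, 12.2 and 13.6 CPM with trametinib (log2 fold change -1.50 ± 0.281 SE, unadjusted p = 0.000835 by edgeR; DESeq2 adjusted p = 0.00555). Tumour CP-2387 had 7.48 CPM of it without treatment, below all 3. Thbs1, the matrix protein thrombospondin 1, had 491 to 543 CPM untreated and 277, 243 and 312 CPM with trametinib, and 139 CPM in tumour CP-2387. Hif1a, the factor of the low-oxygen response, had 65.6 to 84.7 CPM untreated, 138, 125 and 127 CPM with trametinib and 89.1 CPM in tumour CP-2387. Fabp5, a carrier of fatty acids, had 61.2 to 74.9 CPM untreated, 179, 113 and 176 CPM with trametinib and 96.5 CPM in tumour CP-2387. Thus Alox15 and Thbs1 no longer separated the arms once tumour CP-2387 was set beside them, and Hif1a and Fabp5 did. CT010467.1, a ribosomal RNA gene in the annotation, had 8530, 4270 and 2840 CPM untreated and 602, 1080 and 851 CPM with trametinib, and Lars2, a mitochondrial leucyl-tRNA synthetase gene, had 1110 to 2340 and 268 to 830 CPM. In the erlotinib tumours CT010467.1 had 435 to 856 CPM, so it was low in both treated groups. The part of ribosomal RNA content in other values was not tested.

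The comparison with erlotinib asked how trametinib tumours differed from tumours with library numbers in the same range. By edgeR 0 of 19401 genes (0.0%) were called, 267 (1.38%) had an unadjusted p under 0.05, and DESeq2 called 5 (3 higher, 2 lower, 0.0258%). All 3 trametinib tumours lay below all 3 erlotinib tumours for 456 genes (2.35%) and above for 320 (1.65%). Dusp4 was 8.99, 37.2 and 8.59 CPM in CP-4934, CP-4935 and CP-4968, and 15.8, 21.5 and 33.5 CPM with erlotinib, and the median log2 difference of the ERK list was -0.56 with 0 called. Of 30 type I interferon genes 8 were above all erlotinib tumours in all 3 trametinib tumours, against 1.65% of all genes, and of 21 macrophage genes 6 were below in all 3, against 2.35%. Ddx60, an antiviral helicase, had 30.7, 51.6 and 47.9 CPM with trametinib against 14.1, 23.2 and 20.3 CPM with erlotinib, and Fcgr2b, an antibody receptor of macrophages, 56.8, 39.5 and 75.6 against 88.1, 164 and 300 CPM; both were chosen after their values were seen. This comparison uses the same trametinib tumours as the first.

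The last comparisons asked whether the difference between trametinib and untreated tumours in C3-TAG departs from that in other models. The test was on the difference of differences, and higher or lower in C3-TAG means this value, not the level. Each fit estimates 1 spread per gene over all its models. Where C3-TAG tumours vary more than those of other models, the SE and the calls understate the spread within C3-TAG. Spread of the response between models was not part of the test. Against the mean response of 12 other models, 160 of 23103 genes (0.693%) were called by edgeR at an adjusted p under 0.05, 112 higher (0.485%) and 48 lower (0.208%) in C3-TAG. Ldhb (3.14), a subunit of lactate dehydrogenase, Etv5 (1.53 ± 0.366 on the log2 scale, SE; adjusted p = 0.0266), Egr2 (2.19 ± 0.53, adjusted p = 0.0266) and Trf (1.90) were among the higher ones. Ldhb had 27.2, 37.9 and 17.6 CPM untreated, and 60.7, 667 and 30.1 CPM in CP-4934, CP-4935 and CP-4968, so it was highest in CP-4935. All 4 calls rest on that tumour: without it the difference was 0.71 for Ldhb, 0.00 for Etv5, -0.19 for Egr2 and 0.34 for Trf, and none was called. With all untreated tumours, CP-2387 included, Etv5 was 0.06 and Trf 0.20, and neither was called. Etv5 and Egr2 were also not called without untreated tumour CP-4695 (adjusted p = 0.101 and 0.134) or CP-4739 (0.152 and 0.165), with edgeR. Phgdh (1.66 ± 0.279, adjusted p = 0.000506 by edgeR) had a smaller SE here than in the 6 C3-TAG tumours alone. Its difference was 1.10 to 1.86 when any 1 trametinib tumour was left out. Of the 19 called genes named in this report, it was the 1 with an adjusted p under 0.05 whichever of the 6 C3-TAG tumours was left out, and it was also called with all untreated tumours (1.46). Lower in C3-TAG were the growth factor receptor Fgfr3 (-2.39), the metalloproteinase Pappa (-2.26) and the cytokine receptor Il18r1 (-1.84). Fgfr3 had 409, 40.2 and 652 CPM untreated and 125, 79.0 and 40.8 CPM in CP-4934, CP-4935 and CP-4968, while Il18r1 had 44.3, 34.9 and 41.5 CPM against 20.7, 20.9 and 6.81 CPM. None of these 3 was called without untreated tumour CP-4739 (adjusted p = 0.373, 0.251 and 0.158 for Fgfr3, Pappa and Il18r1 by edgeR) or with all untreated tumours (0.147, 0.352 and 0.177). The number of calls without 1 C3-TAG tumour ranged from 20 (without CP-4739) to 1121 (without CP-4968).

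MMTV-Neu and MMTV-PyMT have untreated and trametinib tumours in the same ranges of library number as C3-TAG. Against the mean response of these 2 models, 790 of 20527 genes (3.85%) were called, 410 higher (2.0%) and 380 lower (1.85%) in C3-TAG. Of the ERK list Phlda1 (1.41 ± 0.316, adjusted p = 0.0299) was the 1 member called, and the median difference of the list was 0.61. Cdk4, the kinase partner of Ccnd1, was higher (1.38), and Rb1 (-2.66), which holds back the cell cycle, Braf (-1.01) and the receptor Met (-2.03) were lower. Of the 30 called genes named in this report, 10 were called whichever C3-TAG tumour was left out, Met and Braf among them, while Phlda1, Cdk4 and Rb1 were not called without untreated tumour CP-4739. Dusp6 (1.27, adjusted p = 0.118) and Etv4 (1.98, adjusted p = 0.0634) were not called. With MMTV-PyMT alone as the comparison 12 genes were called, and with MMTV-Neu alone 130. Neither Met nor Braf was called against either model alone.

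Values per tumour were set beside those of the other models. In 36 trametinib tumours of the 12 other models, the median difference of the ERK list from that model's untreated mean was below 0 in every tumour, from -1.07 to -0.12, on a log2 scale after adding 0.5 to CPM. On that scale it was -0.97 in tumour CP-4934, -0.46 in CP-4968 and 0.35 in CP-4935, so the first 2 lay within the range of the other models and tumour CP-4935 above all 36. The mitosis list ranged from -2.38 to 0.22 in the 36 tumours, and was -0.53, -1.21 and 0.77. Type I interferon lists ranged from -0.24 to 2.27, with 0.78, 1.03 and 1.54 in tumours CP-4934, CP-4935 and CP-4968. The epithelial junction list ranged from -0.66 to 0.54 in the 36, and was -0.33, -0.29 and -1.4 in the same 3, so there tumour CP-4968 lay below all 36. The mean over the 3 C3-TAG tumours was -0.67 for that list, against model means of -0.37 to 0.34. C3-TAG tumours given erlotinib or carboplatin plus paclitaxel also had low values of that list, so this was not particular to trametinib.

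**Figure D4:**
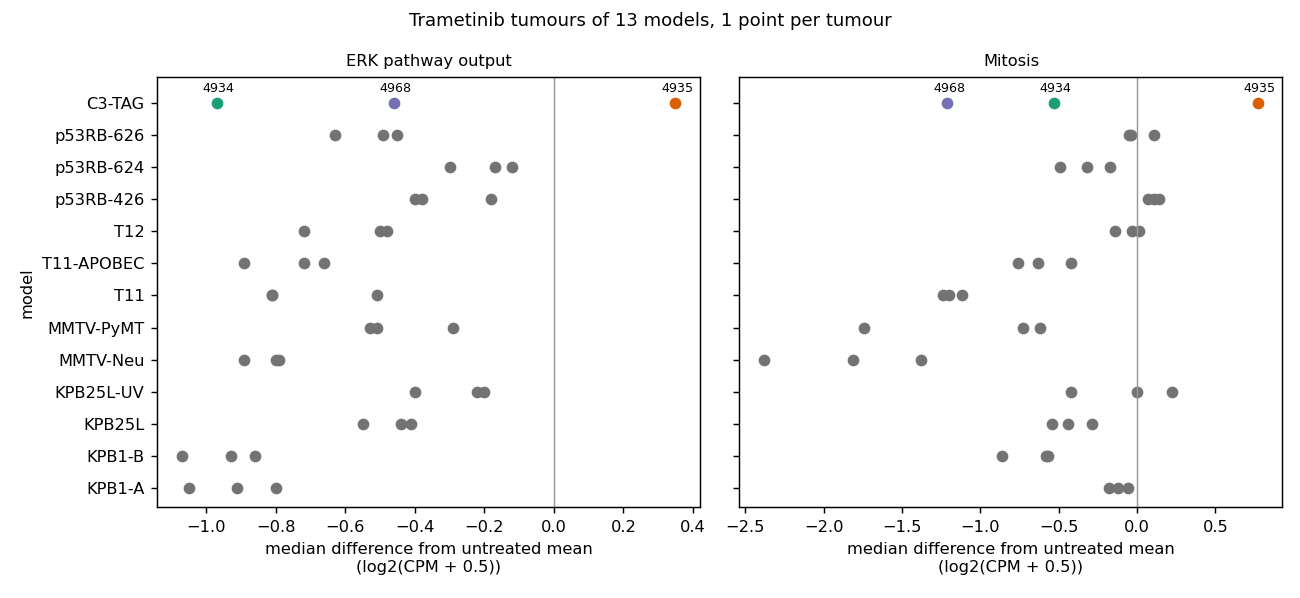
Median difference of the ERK output and mitosis lists from the model's untreated mean, in log2(CPM + 0.5), 1 point per trametinib tumour of 13 models. All 36 tumours of the other models lie below 0 for ERK output (-1.07 to -0.12), and C3-TAG tumour CP-4935 lies at 0.35.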

How the data were processed

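RNA of cryopreserved tumours was sequenced as TruSeq mRNA libraries, per the labels' protocols. The authors deposited salmon estimated counts per gene, made with STAR, SAMtools, Picard and Salmon on mm10 per the submitters' processing notes, with no versions stated. The authors' second deposited table is a signal that equals the count divided by the library's 75th percentile of values above 0, times 1000, to within a relative deviation of 6.76e-14. Estimated counts were rounded, filtered with filterByExpr, scaled by TMM and tested with edgeR 4.0.16 (quasi-likelihood, R 4.3.3), with Benjamini-Hochberg adjustment over all tested genes and a threshold of 0.05. The script was tested on simulated data. Alternatives were DESeq2 1.42.0, limma 3.58.1 on log2(signal + 1) or log2(signal + 10), other size factors, no filter, all untreated tumours and leaving out each tumour. List values use log2 CPM with a prior count of 2, and gene positions GENCODE M21. Named genes were the largest called changes, 2 per list by smallest p and a fixed set of markers. Members and lists were chosen with earlier results of these data known. A few genes, and the comparisons that need them, are not reported here.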

Additional observations from a re-analysis of the deposited data

Results flagged for a closer look

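Within the 4 untreated C3-TAG tumours, tumour CP-2387 stood apart from the other 3 for Dusp5 (105 CPM), Etv5 (280 CPM), Egr2 (118 CPM) and Trf (1450 CPM). Chance sets off about 1 in 20 groups by this measure of the gap to the nearest tumour.

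The difference between trametinib and untreated tumours departed in C3-TAG from the mean of 12 other models by an adjusted p under 0.05 (edgeR) for the genes that follow, in log2 units. Higher were Phex (4.51), Cxcr2 (3.38), Car2 (3.29), S100a9 (3.21), Ldhb (3.14), Foxl1 (3.11), Hunk (3.03), Foxc2 (2.99), Srp54b (2.91), Egr2 (2.19), Trf (1.90), Phgdh (1.66) and Etv5 (1.53). Lower were B3galt5 (-3.15), Fgfr3 (-2.39), Pappa (-2.26), Shox2 (-1.97), Stra6 (-1.86) and Il18r1 (-1.84). Most of these values rest on 1 tumour or lose the call without 1. Without CP-4968 the difference was 0.35 for Phex, 0.71 for Cxcr2, 0.59 for S100a9 and 0.66 for Foxc2. Without CP-4935 it was 0.71 for Ldhb and 1.72 for Car2. With all untreated tumours, CP-2387 included, it was -0.03 for Hunk, 0.06 for Etv5 and 0.20 for Trf. None of these was called in those fits. Of the 19 called genes named here, 8 were called without CP-4935, 12 without CP-4968, 5 without CP-4695, 3 without CP-4739, 7 with all untreated tumours and 1, Phgdh, under each of these.

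Against MMTV-Neu and MMTV-PyMT, the genes higher in C3-TAG were Pik3c2g (9.84), Fetub (7.68), Adcy8 (7.63), Foxl1 (6.61), Srp54b (5.05), Alkal2 (4.90), Hunk (4.84), Ldhb (3.97), Phgdh (2.86), Nr4a1 (1.72), Phlda1 (1.41), Cdk4 (1.38) and Cdkn2c (0.96). Lower were Fabp3 (-5.84), Cel (-4.91), Dhrs9 (-4.65), Ptgs2 (-4.64), Ltf (-4.60), Angpt1 (-3.46), Shox2 (-3.24), Il18r1 (-3.21), Il2ra (-2.72), Ddr2 (-2.66), Rb1 (-2.66), Met (-2.03), Klf4 (-1.99), Tgfbr1 (-1.47), Tjp1 (-1.20), Braf (-1.01) and Ptpn11 (-0.87). These are differences between responses, so a value can come from the other models rather than from C3-TAG. Against the 12 other models Fetub was 1.55, Dhrs9 -0.11 and Fabp3 0.7, and none of these was called. Foxl1, Srp54b, Hunk, Ldhb, Phgdh, Shox2 and Il18r1 were called in the same direction in both comparisons. Some of the means join unlike values. Against MMTV-Neu and MMTV-PyMT in turn the difference was -8.02 and -1.18 for Ltf, -7.5 and -1.82 for Dhrs9, -9.69 and -1.97 for Fabp3, -7.1 and -2.71 for Cel and 3.28 and 0.12 for Nr4a1. Of the 30 called genes named here, 11 were called against MMTV-Neu alone and 2 against MMTV-PyMT alone.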

How the results depend on the processing

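The count of called genes was 0 under every alternative but DESeq2 for trametinib against untreated tumours (DESeq2 19) and against erlotinib (DESeq2 5), with each tumour left out in turn included (0 to 0). Against 12 other models the 160 calls became 93 with all untreated tumours and ranged from 20 (without CP-4739) to 1121 (without CP-4968); the count was 39 without CP-4695, 1066 without CP-4738 and 422 without CP-4934. Against MMTV-Neu and MMTV-PyMT the 790 calls became 370 with no filter, 130 with MMTV-Neu alone and 12 with MMTV-PyMT alone. They ranged from 123 (without CP-4739) to 1422 (without CP-4934), with 269 without CP-4695, 1309 without CP-4738 and 1230 without CP-4935. Against 12 other models, leaving out 1 tumour moved the difference from 0.00 to 1.98 for Etv5 and from -0.19 to 2.70 for Egr2. Against MMTV-Neu and MMTV-PyMT, it moved from -0.94 to 10.36 for Pik3c2g. For each of these genes the lowest value was without tumour CP-4935. In the first comparison, 49 of 1508 pairs of a named gene and a setting had the other sign, in 22 of 116 genes. Of 413 such pairs in the comparisons between models, 271 kept their call and sign, 139 lost the call and 3 had the other sign. The causes were not tested. No paired analysis was possible because the labels give no replicate numbers shared between groups. Calls at other depths or group sizes were not computed.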
